A study of Mus musculus with 15 samples.

Results

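The 10 Notch pathway genes described here were followed through 5 groups of mouse brain tissue: the receptors Notch1, Notch2 and Notch3, the ligands Jag1, Dll1, Dll3 and Dll4, and the target genes Hes1, Hes5 and Hey1. The genes were chosen by name, and all 10 of them were found once each among the 46679 genes of the deposited table. All but Dll3, that is 9 of the 10 genes, passed the filter on low counts and were tested together with the other genes that passed, 17481 in all. The sequenced RNA came from CT2A, GL261, 005 and Mut3 tumors taken at end stage and from naïve brain tissue, with 3 C57BL/6 mice in each group and 15 samples in total.

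Tumor-bearing mice were 6 to 8 weeks old at implantation. They received 100000 CT2A, GL261 or 005 cells, or 500000 Mut3 cells, into the right hemisphere. No separate age was stated for the naïve mice. Age at sampling was not stated, and the time to end stage was shortest for CT2A and longest for Mut3. CT2A and GL261 are chemically induced mouse glioma lines grown in serum, and CT2A is wild type for p53 whereas GL261 carries K-ras and p53 mutations. The 005 line came from tumors driven by activated H-ras and AKT in a p53 heterozygous background, and Mut3 came from mice with inactivated NF1 and p53. Both were grown as stem-like cultures with EGF and FGF-2. All 4 lines carried a GFP and Firefly luciferase reporter. Each line is a single culture, so the 3 mice of a tumor group share their tumor cells and differ in the host. Naïve mice carried no tumor cells, and the brain region sampled was not stated.

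Notch signaling passes between touching cells. A ligand of the Jagged or Delta-like family on one cell binds a Notch receptor on its neighbor, the receptor is cleaved by an ADAM protease and then by gamma-secretase, and the freed intracellular domain enters the nucleus, binds RBPJ and recruits Mastermind proteins to switch on genes such as Hes1, Hes5 and Hey1. These targets are basic helix-loop-helix repressors that hold back proneural factors. In the brain the pathway is known for keeping neural stem cells undifferentiated, for the astrocyte fate and for the growth of blood vessels, and several of its members are studied in glioma. In bulk tissue, fewer cells of a type and less RNA per cell cannot be told apart.

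The 10 genes are protein-coding. On the GRCm38 build, in the GENCODE M21 annotation, Jag1 spans chr2:137081456-137116644, Dll1 chr17:15367354-15376872, Dll3 chr7:28293553-28302238 and Dll4 chr2:119325784-119335962. The receptors span chr2:26457903-26516663 (Notch1), chr3:98013527-98150361 (Notch2) and chr17:32120820-32166852 (Notch3). The targets span chr16:30064384-30067796 (Hes1), chr4:154960923-154962371 (Hes5) and chr3:8663359-8667256 (Hey1).

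Hes5 is a textbook RBPJ-dependent target, and its promoter is shown because it was the only one of the members' promoters examined that held the RBPJ core motif. RefSeq promoter windows (GRCm38.p6, from 250 bases before to 50 bases after a start, 300 bases in all) matched 8 of the 10 genes with 9 windows. No window was used for Hes1 and Hey1. The core motif TGGGAA was searched on both strands. It had 2 matches in the Hes5 window and none in the other 8 windows, whereas 25.6% of all 32851 promoter windows held at least 1 match and 3.79% held 2 or more. The 250 bases upstream of the Hes5 start, on the plus strand of chr4:154960673-154960922, are given with both matches in capitals. The first, written here as its reverse complement, lies 226 to 221 bases upstream and the second 82 to 77 bases upstream:
Hes5 promoter: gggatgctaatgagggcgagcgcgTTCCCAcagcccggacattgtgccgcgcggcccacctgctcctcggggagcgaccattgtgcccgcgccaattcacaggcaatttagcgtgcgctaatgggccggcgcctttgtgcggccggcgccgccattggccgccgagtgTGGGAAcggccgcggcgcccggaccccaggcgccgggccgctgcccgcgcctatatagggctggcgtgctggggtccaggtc
The motif CACNAG, which HES repressors can bind (the N-box), occurred in 42.5% of all windows, 3 times in the Notch1 window and nowhere in the Hes5 window. These matches describe letters in a window and were not tested as binding sites.

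Library totals ranged from 3105119 to 13130158 counts, and 3 counts were worth 0.228 CPM (counts scaled to the size of the library) in the deepest and 0.966 CPM in the shallowest, so low members such as Dll4 rest on single counts. Naïve libraries held 14.97 to 23.97% mitochondrial counts. Naïve tissue had the highest summed neuronal markers, from 3880 to 6280 CPM, and its proliferation markers summed to 24.1 to 38.4 CPM. All 5 proliferation markers were higher in each tumor than in naïve brain. One tumor library stood apart: 005 replicate 3 had neuronal markers summing to 3520 CPM, against 569 and 179 CPM in the other 005 tumors, proliferation markers of 112 CPM against 984 and 1030 CPM, and 17.82% mitochondrial counts. Where leaving it out changed a 005 call against naïve brain among the genes named here, or moved a called value by over 1.5 times, the value without it is also given.

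Levels are given as CPM after TMM scaling, a correction for differences in library composition, and 3 values are always in the order of replicates 1 to 3. Differences between groups are log2 fold changes with standard errors from edgeR's quasi-likelihood test across all tested genes, with Benjamini-Hochberg adjusted p-values. The label DE, for differentially expressed, was given where the adjusted p was under 0.05 and the log2 fold change was 1 or more in either direction. The 3 mice of a group are separate animals.

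Calls among the 9 tested members were most frequent in CT2A, where 4 were DE against naïve brain beside 39.2% of all tested genes. Jag1, Notch2 and Hes1 were higher, 3 members where 19% of genes were DE and higher, and Hes5 was the 1 lower member, where 20.2% were DE and lower. In GL261 only Jag1 was DE, 1 member where 22.4% of genes were DE and 14.6% DE and higher. In Mut3, 3 members were DE, all higher (Jag1, Notch2 and Notch3), where 37.8% of genes were DE and 17.9% DE and higher. On TPM, a length-scaled transcript share, these 3 calls were lost and the Mut3 count was 2, both lower (Hes1 and Hey1), where 27.2% of genes were DE on log2(TPM + 1) and 40.3% on log2(TPM + 0.1). In 005 none was DE (0 members, 4 at an unadjusted p under 0.05 and 1 by DESeq2) where 12.7% of genes were DE, and without 005 replicate 3 the count was 3 of 10 members then tested (Jag1 higher, Hes5 and Hey1 lower), where 35.7% of genes were DE. Over the 9 members the median log2 fold change was 0.02 in CT2A and 1.14 in Mut3, where it was −0.04 and 0.11 over all tested genes. For GL261 the members' median was 0.52 (−0.08 over all genes) and for 005 it was 0.36 (0.01). These 4 comparisons share the same naïve samples. The members' DE shares lay on both sides of the backgrounds, so the list as a whole is described by its individual genes.

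**Figure D1:**
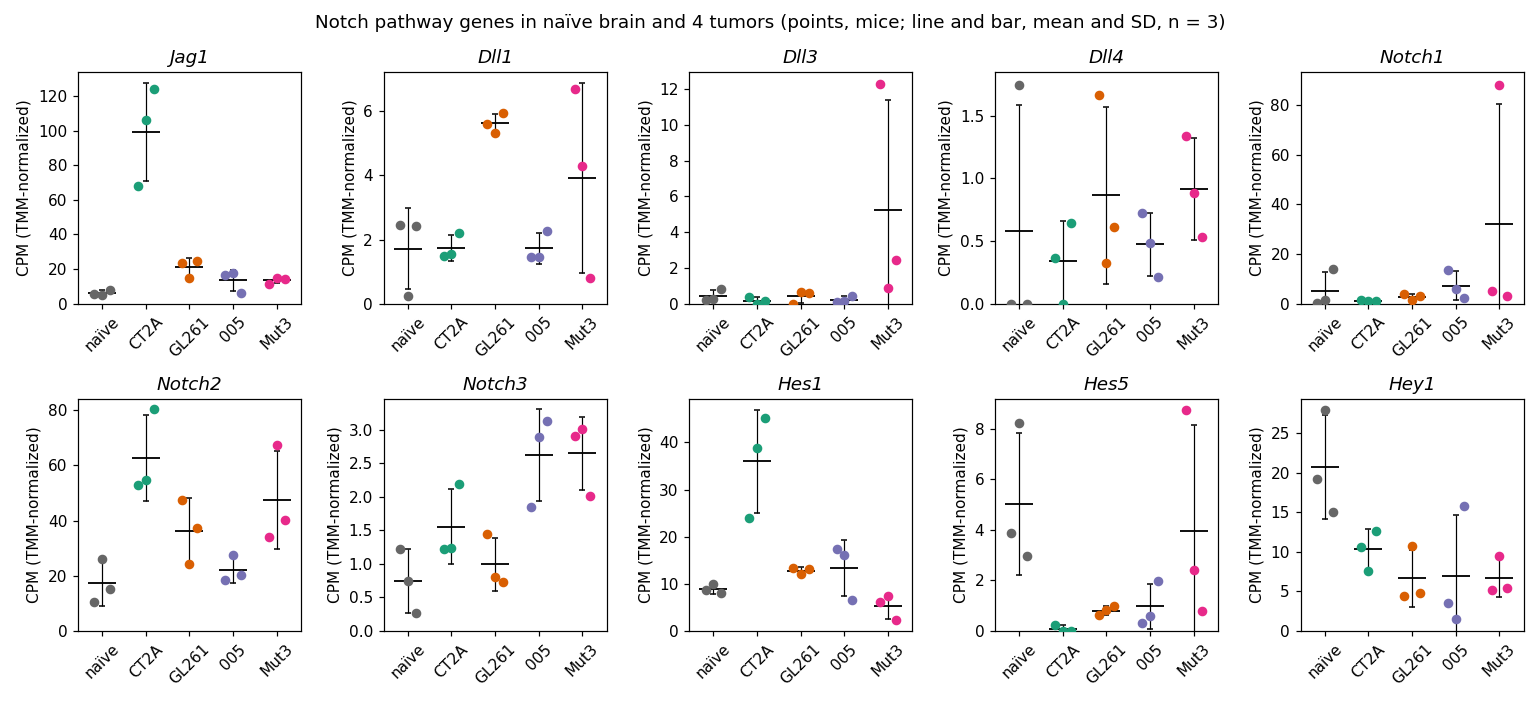
CPM of the 10 Notch pathway genes (vertical axes, linear, a scale of its own for each gene) in naïve brain and the CT2A, GL261, 005 and Mut3 tumors. Points are mice, the horizontal line is the mean and the bar is the SD (n = 3), cut off at 0; all 3 CT2A tumors lie above every other sample for Jag1 and Hes1 and at or near 0 for Hes5.

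Jag1, the Jagged ligand used widely in development and in tumors, separated the groups most. It was at 5.3, 4.98 and 8.11 CPM in naïve brain and at 68.1, 106 and 124 CPM in CT2A. In GL261 it was at 23.6, 14.7 and 24.9 CPM, in 005 at 16.5, 17.5 and 6.34 CPM, and in Mut3 at 11.6, 15 and 14 CPM. The CT2A tumors were above all 12 other samples, GL261 and Mut3 were above all naïve samples, and only 005 replicate 3 fell within the naïve range. In edgeR's test CT2A exceeded naïve brain by 4.02 ± 0.43 (SE, log2 scale; adjusted p = 8.3e-05). Jag1 also rose in GL261, by 1.78 ± 0.41 (adjusted p = 0.00779, edgeR), and in Mut3, by 1.14 ± 0.40 (adjusted p = 0.0341, edgeR). In 005 the difference was 1.13 ± 0.40 with an adjusted p of 0.0768 by edgeR, and without replicate 3 it was 1.41 with an adjusted p of 0.00617.

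Differences of Jag1 between tumors were tested directly. CT2A exceeded GL261 by 2.23 ± 0.39 (adjusted p = 0.00379, edgeR), and Jag1 was the 1 member called where 7.77% of all genes were DE and 4.15% were DE and higher in CT2A. It was higher in CT2A than in 005 by 2.89 ± 0.40 (adjusted p = 0.0015, edgeR) and than in Mut3 by 2.87 ± 0.40 (adjusted p = 0.00047, edgeR). GL261, 005 and Mut3 did not separate from each other, with differences of 0.65 ± 0.38 (GL261 over 005), 0.64 ± 0.38 (GL261 over Mut3) and −0.01 ± 0.38 (005 over Mut3). The order of the means was therefore CT2A at 99.2 ± 28.4 CPM (SD, n = 3), GL261 at 21.1 ± 5.54, then Mut3 at 13.5 ± 1.71 and 005 at 13.4 ± 6.17, and naïve brain at 6.13 ± 1.72. The Mut3 call was lost without naïve replicate 1 (adjusted p = 0.106), naïve replicate 2 (0.0725), Mut3 replicate 2 (0.0825) or Mut3 replicate 3 (0.0824), at log2 fold changes of 1.05 to 1.19. The CT2A call against 005 was lost when only those 6 samples were fitted (2.87, adjusted p = 0.0539, edgeR).

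Dll1, a Delta-like ligand that acts on neighboring cells in the developing nervous system, was highest and most even in GL261. Its levels were 2.45, 0.249 and 2.43 CPM in naïve brain, 5.6, 5.33 and 5.94 CPM in GL261, and 6.71, 4.28 and 0.792 CPM in Mut3. CT2A (1.47, 1.55 and 2.2 CPM) and 005 (1.44, 1.45 and 2.28 CPM) lay within the naïve range. GL261 did not overlap naïve brain, CT2A or 005, but the difference from naïve brain, 1.7 ± 0.74, did not pass the test (adjusted p = 0.101, edgeR). Across all 5 groups Dll1 had an adjusted p of 0.106 by edgeR, and 0.0322 without Mut3 replicate 3.

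Dll3, a divergent Delta-like protein that does not activate Notch on neighboring cells and is known as a surface marker in neuroendocrine tumors and some gliomas, was near absent outside Mut3. Its estimated counts were 110, 7 and 28 in Mut3, or 12.3, 0.881 and 2.46 CPM, and at most 6 in each of the other 12 samples. Mut3 was above every other sample, although replicate 2 (0.881 CPM) was close to naïve replicate 3 (0.811 CPM, from 3 counts). Dll3 failed the low-count filter and so had no place in the main test. Fitted with no filter, over 32244 genes, it was higher in Mut3 than in naïve brain by 3.64 ± 1.11 (adjusted p = 0.0175, edgeR), and the differences from Mut3 were −4.79 ± 1.15 for CT2A (adjusted p = 0.00697, edgeR), −3.56 ± 1.06 for GL261 (0.0269) and −4.38 ± 1.08 for 005 (0.00622). Because the counts in CT2A, GL261, 005 and naïve libraries were 0 to 6, these fitted folds depend on few reads.

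Dll4, the Delta-like ligand of endothelial tip cells, was too low to compare. It had 0, 7 and 0 counts in naïve brain, 3, 0 and 5 in CT2A, 8, 2 and 5 in GL261, 7, 4 and 3 in 005, and 12, 7 and 6 in Mut3. All groups overlapped, and its adjusted p across the 5 groups was 0.784 (edgeR). A difference of Dll4 was not detectable at this depth. Summed endothelial markers were 117 to 128 CPM in CT2A, 120 to 134 in Mut3, 184 to 240 in GL261, 143 to 254 in 005 and 174 to 259 in naïve brain.

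Among Notch1, Notch2 and Notch3, Notch2 was the most abundant in 12 of the 15 samples per length (TPM). The receptor Notch4 was not one of the members. It reached 1.28 TPM in a Mut3 tumor and 0.857 TPM in a 005 tumor, where Notch2 was at most at 0.813 TPM. By edgeR Notch4 was DE and higher in Mut3 than in naïve brain, while on TPM the 2 groups overlapped (0.464 to 1.28 and 0.252 to 0.512). Its 005 value against naïve brain was 1.26 (adjusted p = 0.0983, edgeR), or 1.5 (0.0241) without 005 replicate 3. Notch2 was at 10.4, 26.2 and 15.1 CPM in naïve brain and at 52.8, 54.8 and 80.5 CPM in CT2A. In Mut3 it was at 34.1, 67.6 and 40.3 CPM, in GL261 at 47.5, 24.2 and 37.4 CPM, and in 005 at 18.6, 27.6 and 20.2 CPM. CT2A and Mut3 lay above all naïve samples, and CT2A also above all GL261 and 005 samples. Against naïve brain Notch2 rose by 1.86 ± 0.40 in CT2A (adjusted p = 0.00331, edgeR) and by 1.46 ± 0.39 in Mut3 (adjusted p = 0.00945, edgeR). On log2(TPM + 0.1) neither rise passed, at 0.84 in CT2A and 0.59 in Mut3 (adjusted p = 0.132 and 0.311, limma). In GL261 the difference was 1.08 ± 0.39 with an adjusted p of 0.0582 by edgeR, and it passed without naïve replicate 2 (0.0203) or GL261 replicate 2 (0.0467). In 005 it was 0.36 ± 0.39 (adjusted p = 0.533, edgeR).

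Between tumors, Notch2 was higher in CT2A than in 005 by 1.5 ± 0.39 (adjusted p = 0.0448, edgeR), one of 2 members called (with Jag1) where 4.11% of all genes were DE and 2.12% were DE and higher in CT2A. This call was lost with any single library of either group left out, with adjusted p-values from 0.0543 without 005 replicate 2 to 0.183 without CT2A replicate 3, while the log2 fold change stayed between 1.28 and 1.69. Notch2 did not separate CT2A from Mut3 (0.41 ± 0.38) or GL261 from Mut3 (−0.38 ± 0.38).

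Notch1, the receptor best known from neural stem cells and T cells, varied more within groups than between them. It was at 0.204, 1.49 and 13.8 CPM in naïve brain, 1.34, 0.931 and 0.904 CPM in CT2A, 3.73, 1.62 and 2.91 CPM in GL261, 13.6, 5.67 and 2.28 CPM in 005, and 4.92, 88.1 and 2.9 CPM in Mut3. One Mut3 tumor, replicate 2, held 700 counts against 44 and 33 in the others. CT2A was below every GL261, 005 and Mut3 sample, and all groups overlapped naïve brain. The difference of CT2A from Mut3 was called, at −4.88 ± 1.39 (adjusted p = 0.0326, edgeR), but was −1.86 with an adjusted p of 0.323 without Mut3 replicate 2. It was also lost without CT2A replicate 1 (0.0834), 2 (0.112) or 3 (0.11). Against naïve brain the Mut3 value turned from 2.65 (adjusted p = 0.103, edgeR) to −0.37 without that library.

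Notch3, the receptor of pericytes and smooth muscle cells of vessels, was low in all groups. It was at 1.22, 0.747 and 0.27 CPM in naïve brain, 2.91, 3.02 and 2.02 CPM in Mut3, and 1.85, 2.9 and 3.13 CPM in 005. CT2A (1.22, 1.24 and 2.2 CPM) and GL261 (1.45, 0.808 and 0.728 CPM) overlapped naïve brain, whereas Mut3 and 005 did not. Notch3 rose by 1.77 ± 0.61 in Mut3 (adjusted p = 0.0317, edgeR), and the 005 value was 1.76 ± 0.61 with an adjusted p of 0.0702. The Mut3 call was lost without naïve replicate 3 (0.104), Mut3 replicate 1 (0.0714) or Mut3 replicate 2 (0.0774). Summed mural cell markers (pericytes and smooth muscle) were 160 to 231 CPM in naïve brain, 141 to 168 in Mut3 and 147 to 248 in 005. Of the 6 mural markers, 2 were higher in 005 (Kcnj8 by 2.3 and Abcc9 by 1.87) and 1 was lower in Mut3 (Vtn, −1.25), and Vtn was also lower in 005 without replicate 3 (−1.43, adjusted p = 0.00784, edgeR). No mural marker was at 0 in any library, and their part in the Notch3 levels was not tested.

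Hes1, the repressor most broadly induced by Notch and by other signals, followed Jag1 in being highest in CT2A. It was at 8.57, 9.96 and 8.11 CPM in naïve brain and at 23.9, 38.8 and 45.3 CPM in CT2A. It was at 13.3, 12 and 13.1 CPM in GL261, 17.4, 16.2 and 6.62 CPM in 005, and 6.04, 7.42 and 2.2 CPM in Mut3. CT2A was above all other samples, GL261 just above naïve brain and Mut3 entirely below it, and 005 replicate 3 was again apart from the other 005 tumors. Hes1 rose by 2.02 ± 0.46 in CT2A (adjusted p = 0.00437, edgeR). The values in GL261 (0.52 ± 0.45), 005 (0.59 ± 0.45) and Mut3 (−0.77 ± 0.45) did not pass in edgeR's test, and the 005 value was 0.85 ± 0.42 without replicate 3 (adjusted p = 0.124, edgeR). On log2(TPM + 0.1) the Mut3 decrease passed (−1.62, adjusted p = 0.00683, limma), and the CT2A rise did not (0.97, adjusted p = 0.0644, limma).

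The tumor lines differed in Hes1 when compared directly. It was higher in CT2A than in Mut3 by 2.79 ± 0.47 (adjusted p = 0.00146, edgeR), where 12.8% of all genes were DE and 4 members were called. Jag1 and Hes1 were higher (2 members, 6.61% of genes) and Notch1 and Hes5 lower (2 members, 6.15% of genes). It was higher in 005 than in Mut3 by 1.36 ± 0.45 (adjusted p = 0.0443, edgeR), the 1 member called where 19.8% of genes were DE and 14% were DE and higher in 005. The second call was lost without 005 replicate 1 (0.119), 005 replicate 2 (0.107), Mut3 replicate 1 (0.0737) or Mut3 replicate 3 (0.115), with log2 fold changes of 1.09 to 1.70 over all single libraries left out. GL261 lay above Mut3 in every sample, by 1.3 ± 0.45, with an adjusted p of 0.0591 (edgeR). The difference of CT2A from GL261 was 1.49 ± 0.44 (adjusted p = 0.0524, edgeR).

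Hes5, the Notch target most restricted to neural progenitors and astrocytes, ran opposite to Hes1 in CT2A. It was at 3.88, 8.22 and 2.97 CPM in naïve brain and had 2, 0 and 0 counts in the CT2A tumors. It was at 0.622, 0.808 and 0.97 CPM in GL261, 0.309, 0.604 and 1.99 CPM in 005, and 8.73, 2.39 and 0.792 CPM in Mut3. All CT2A samples were below every other sample, GL261 and 005 were below all naïve samples, and Mut3 overlapped naïve brain, with replicate 1 above all of it. Hes5 fell in CT2A against naïve brain (adjusted p = 0.00342, edgeR) and was lower in CT2A than in Mut3 (adjusted p = 0.00964, edgeR). With 2 counts in CT2A the ratio to naïve brain was 0.0179, with an exact 95% interval of 0.00212 to 0.0674 that covers counting error only, and the ratio to Mut3 was 0.0238 (0.00285 to 0.0882). Without Mut3 replicate 1 the adjusted p of the second was 0.056. In GL261 the difference from naïve brain was −2.61 ± 0.96 (adjusted p = 0.0612, edgeR), in 005 −2.32 ± 0.92 (0.107) and in Mut3 −0.34 ± 0.87 (0.777). Without 005 replicate 3 the 005 value was −3.5 with an adjusted p of 0.0192. DESeq2 called Hes5 lower in GL261 and in 005 with all libraries (adjusted p = 0.0231 and 0.0476), as did limma on log2(TPM + 0.1) (−3.08 and −2.94, adjusted p = 0.0136 and 0.0292).

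Hey1, a target in vessels and glia, was lower in all tumors on average, but no difference passed in edgeR's test. It was at 19.2, 27.9 and 15.1 CPM in naïve brain and at 10.6, 7.61 and 12.7 CPM in CT2A. It was at 4.35, 10.8 and 4.85 CPM in GL261, 3.5, 1.45 and 15.8 CPM in 005, and 5.15, 9.44 and 5.45 CPM in Mut3. Every tumor sample but 005 replicate 3 was below all naïve samples. CT2A differed from naïve brain by −1.01 ± 0.65, GL261 by −1.63 ± 0.67, 005 by −1.57 ± 0.66 and Mut3 by −1.64 ± 0.66, with adjusted p-values of 0.227, 0.0855, 0.125 and 0.0622 (edgeR). Without 005 replicate 3 the 005 value was −3.12 with an adjusted p of 0.000924, and Hey1 was then also higher in CT2A than in 005 (2.07, adjusted p = 0.0454, edgeR). DESeq2 called Hey1 lower in GL261 (adjusted p = 0.0413) and Mut3 (0.0343).

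**Figure D2:**
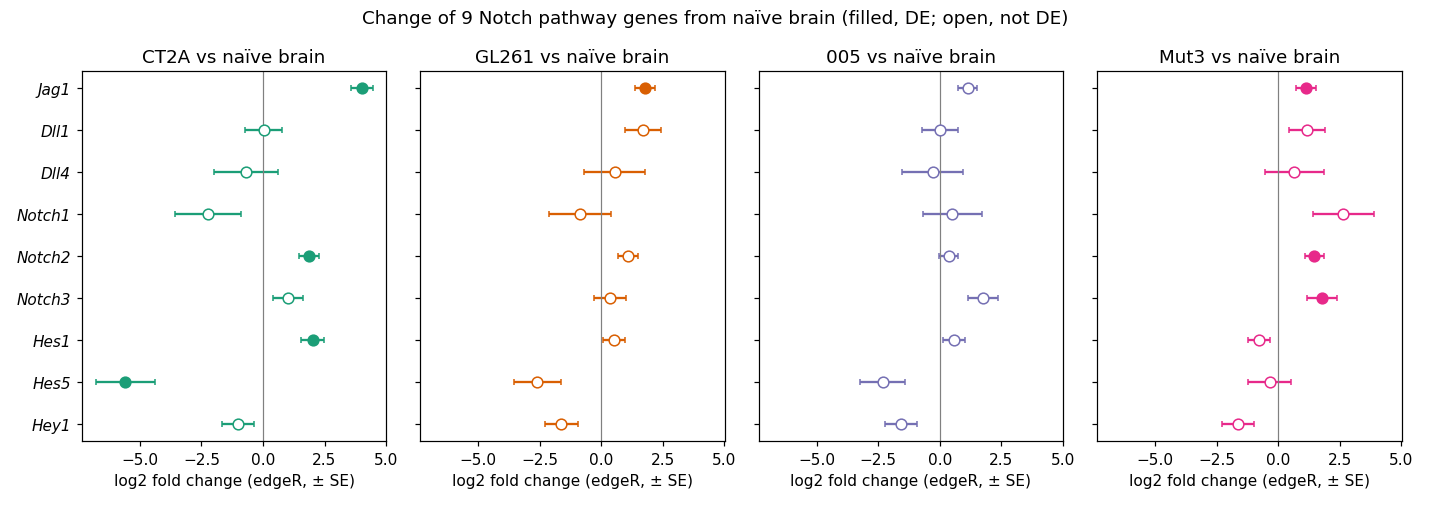
Log2 fold change from naïve brain (horizontal axis; bars, SE of edgeR's fit) of the 9 tested Notch pathway genes in each tumor, 3 mice per group; filled points passed the DE threshold and open points did not. Jag1 is to the right of 0 in all 4 tumors, at 4.02 in CT2A and between 1.13 and 1.78 in the others, and the CT2A point of Hes5 rests on 2 counts.

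Astrocyte and neuronal markers ran with Hey1, less with Hes5 and not with Hes1. Summed astrocyte markers were 1190 to 1660 CPM in naïve brain, 284 to 519 CPM in CT2A, 606 to 951 CPM in GL261, 216 to 522 CPM in Mut3 and 291 to 1490 CPM in 005, the highest being replicate 3. Of the 7 astrocyte markers, 4 were DE in CT2A, all lower, and 5 in Mut3, 4 of them lower, against 1 in GL261 and 0 in 005 (edgeR). When 005 replicate 3 was left out, 2 were DE in 005, both lower. All 7 neuronal markers were lower in CT2A and in Mut3, 0 were DE in 005, and without 005 replicate 3 all 7 were lower there. Over the 15 samples, log2 CPM of Hey1 had a Pearson r of 0.71 with the summed astrocyte markers and −0.71 with the proliferation markers, Hes5 had 0.42 and −0.59, Hes1 −0.11 and 0.24, and Jag1 −0.57 and 0.67. With the neuronal markers r was 0.63 for Hey1, 0.26 for Hes5, −0.02 for Hes1 and −0.46 for Jag1. Other marker lists gave larger values for Hes5 and Hes1. With leukocyte markers r was −0.69 for Hes5 and −0.6 for Hey1. Hes1 had −0.61 with oligodendrocyte precursor markers and −0.51 with mural markers. The points share group, library and depth, and the part of these markers in the Notch results was not tested.

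Between GL261 and 005 no member was DE (0 members, with Notch3 and Dll1, 2 members, at an unadjusted p under 0.05, and 0 by DESeq2), where 2.62% of all genes were. Between GL261 and Mut3 none was DE (0 members, 4 at an unadjusted p under 0.05, and 2 by DESeq2), where 17.2% were. Asked whether a gene differed anywhere among the 5 groups, edgeR's test called 5 of the 9 members where 52.1% of all genes were called. These were Jag1 (adjusted p = 3.22e-05), Hes1 (0.0018), Notch2 (0.00645), Hes5 (0.00679) and Notch1 (0.0279). The Notch1 call was lost without CT2A replicate 2 (0.0702), CT2A replicate 3 (0.0617) or Mut3 replicate 2 (0.217). Notch3 (0.0546), Dll1, Hey1 (0.116) and Dll4 were not called, and Hey1 had an adjusted p of 0.00171 without 005 replicate 3.

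Complete separation of groups was common in these data. Between CT2A and naïve brain 5 of the 9 tested members did not overlap, where 56.3% of all genes did not, and in GL261 5 did not (47.8%), in Mut3 5 (53.3%) and in 005 2 (27.5%). Between tumors the count was highest for CT2A and GL261, with 6 of 9 members apart where 36.4% of genes were. For CT2A and 005 it was 5 (25.7%), and for CT2A and Mut3 4 (39.1%). The remaining tumor pairs had 2 (GL261 and 005, 18.2%), 2 (GL261 and Mut3, 43%) and 1 (005 and Mut3, 34.1%).

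The balance among the members of each role was compared per length, on the TPM scale. It was taken as the share of each gene in the summed TPM of the listed ligands, receptors or targets of a sample. Other genes of the pathway were not counted. These shares were chosen after the values were seen and are a description. Jag1 made up 83.1 to 91.2% of ligand TPM in CT2A, against 22.1 to 38% in naïve brain, 25.8 to 36.6% in GL261, 24.8 to 60.8% in 005 and 6.25 to 30.4% in Mut3. Dll1 was the larger part in GL261, at 53.7 to 60.7%. Dll3 took 68.7% and 55.4% of ligand TPM in Mut3 replicates 1 and 3 and 16.2% in replicate 2. The leading one of the listed ligands thus differed between CT2A, GL261 and most Mut3 tumors.

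Among receptors, Notch2 took 91.5 to 93.3% of TPM in CT2A and 83.8 to 84.9% in GL261, and the other groups were uneven. Notch1 led in naïve replicate 3 (60.4%), 005 replicate 1 (52%) and Mut3 replicate 2 (68%). Among targets, Hes1 took 78.2 to 90% in CT2A, 58.7 to 76.2% in GL261 and 30.8 to 86.3% in 005, where replicate 3 was the lowest. In naïve brain the 3 targets were nearer to equal, with Hes1 at 19.7 to 32.3%, Hes5 at 33.4 to 48.7% and Hey1 at 31.6 to 35.3%. The Hes1 share in Mut3, 17.3 to 37.5%, overlapped that of naïve brain, and its Hes5 share was 29.5 to 74.2%.

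**Figure D3:**
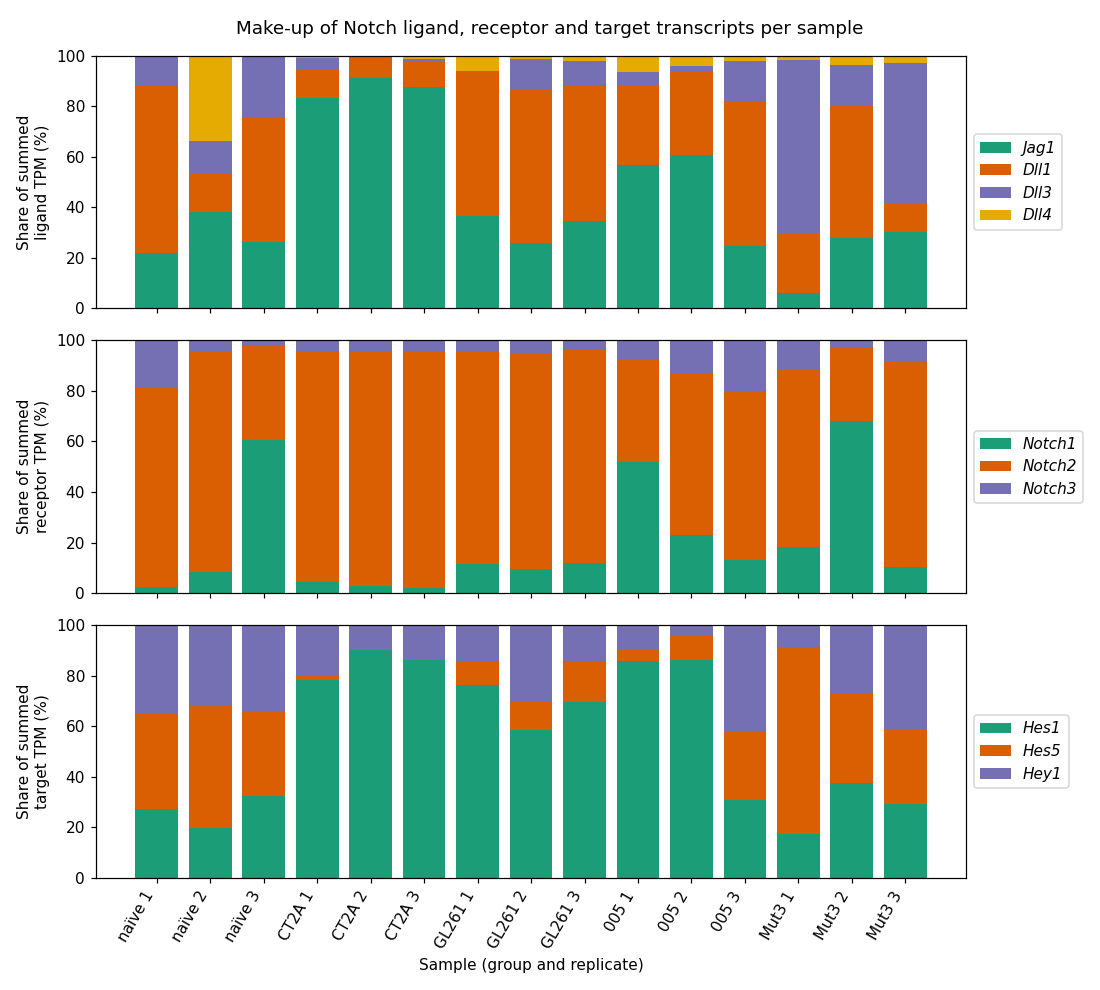
Share (%) of each gene in the summed TPM of the 4 listed ligands (top), 3 listed receptors (middle) and 3 listed targets (bottom), 1 stacked bar for each of the 15 samples. Jag1, Notch2 and Hes1 fill most of the 3 CT2A bars, and Dll3 fills 68.7% of the ligand bar of Mut3 replicate 1.

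Across the 15 samples Jag1 ran with Hes1 (Pearson r of log2 CPM 0.76) and with Notch2 (0.76) and against Hes5 (−0.85), and Hes1 ran against Hes5 (−0.67). The points share their groups and libraries, and the values are a description. Among 8936 other genes with a mean log2 CPM of at least 3, the genes whose pattern was most like Jag1 were 2010111I01Rik, Gpx8 and Eef1g (r = 0.96, 0.96 and 0.95). For Hes1 they were Megf10, Pdlim2 and Thbs1 (0.95, 0.9 and 0.89), for Notch2 Gm11127, Rab26os and Mxra8 (0.9, 0.9 and 0.89), and for Hey1 Clvs1, Ndufv1 and Bex2 (0.92, 0.91 and 0.9). For the lower genes, ranked among 8937, they were Ppp2ca, Vps52 and Tomm20 for Hes5 (0.96, 0.94 and 0.94), Afg3l1, Vrk3 and Ccdc115 for Dll4 (0.85, 0.81 and 0.81), Tarbp2, Tmem98 and Scarb2 for Notch3 (0.84, 0.84 and 0.81), Dhrs1, Gm10774 and Zkscan5 for Dll1 (0.81, 0.79 and 0.78), and Pcca, Nfkbib and Sp3os for Notch1 (0.79, 0.76 and 0.76).

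The rest of the pathway was read from a list of 49 other genes, of which 43 were tested. CT2A had 15 of the 43 DE (4 higher and 11 lower) with a median log2 fold change of −0.16, where 39.2% of all genes were DE, and Mut3 had 17 (8 higher and 9 lower) with a median of −0.03, where 37.8% were. GL261 had 6 (2 higher and 4 lower, median −0.14; 22.4% of all genes) and 005 had 4 (3 higher and 1 lower, median 0.02; 12.7%). These counts were near or below the share over all genes, so the list is described by its genes. The 005 count was 20 without replicate 3 (8 higher and 12 lower), where 35.7% of all genes were DE. Of the 8 genes of the nuclear complex, 2 were DE and higher in CT2A (19% of all genes), 3 in Mut3 (17.9%) and 1 in 005 (11.6%), and none was DE and lower. Rbpj, the DNA-binding partner of Notch, was at 26.9, 13.5 and 18.7 CPM in naïve brain, 74.2, 88 and 127 CPM in CT2A, 156, 127 and 27.1 CPM in 005, 86.9, 30.2 and 55 CPM in Mut3 and 90.6, 47 and 31.7 CPM in GL261. On CPM every tumor sample was above the highest naïve sample, 005 replicate 3 by the least. On TPM naïve brain was at 1.78 to 2.95, and only CT2A (4.86 to 7.06) lay above it. The lowest TPM values of GL261 (2.46), 005 (2.93) and Mut3 (2.06) fell within the naïve range. Rbpj rose in CT2A by 2.29 ± 0.60 (adjusted p = 0.00844), in 005 by 2.39 ± 0.60 (0.0172) and in Mut3 by 1.54 ± 0.58 (0.0471) in edgeR's test, and the GL261 value was 1.51 ± 0.58 (0.0701). The 005 value was 2.77 ± 0.48 (0.000648) without replicate 3. Maml1, a Mastermind co-activator, rose in CT2A by 1.76 and in Mut3 by 2.06 (adjusted p = 0.0169 and 0.00744, edgeR), and its 005 value was 1.23 (0.131), or 1.47 (0.0365) without 005 replicate 3. On TPM Maml1 overlapped naïve brain (0.185 to 0.547) in CT2A (0.346 to 0.693) and in Mut3 (0.374 to 1.11).

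Of the 11 genes that act on ligand and receptor turnover, 6 were DE and lower in CT2A (20.2% of all genes), 5 in Mut3 (19.8%), 2 in GL261 (7.77%) and 1 in 005 (1.05%), and 0 were DE and higher. When 005 replicate 3 was left out, 6 were lower in 005 and 1 was higher (Dtx4, 1.17, adjusted p = 0.014, edgeR), where 18.1% and 17.6% of all genes were. Fbxw7, the ubiquitin ligase subunit that marks the Notch intracellular domain for degradation, was at 377, 351 and 346 CPM in naïve brain and at most at 204 CPM in a tumor, in 005 replicate 3. It fell in every tumor model, with log2 fold changes of −3.13 for CT2A, −2.51 for GL261, −1.84 for 005 and −4.23 for Mut3 (adjusted p = 0.00153, 0.00702, 0.0395 and 0.000353, edgeR), and without 005 replicate 3 the 005 value was −2.97 (0.000308). Mib2, a ubiquitin ligase for Delta ligands, fell in CT2A (−2.47), GL261 (−3.22) and Mut3 (−2.36; adjusted p = 0.0299, 0.0201 and 0.0352, edgeR). Neurl1a, a neuralized homolog, fell in CT2A (−3.9, 0.0093) and Mut3 (−5.04, 0.00282). Dner, a neuronal Notch-related ligand, fell in CT2A (−2.95, 0.00646), GL261 (−2.06, 0.0461) and Mut3 (−3.35, 0.00299). Dlk2, a Delta-like homolog, fell in CT2A (−3.62, 0.0303) and Mut3 (−4.69, 0.0116). Without 005 replicate 3, edgeR's test also called Mib2 (−2.37, adjusted p = 0.0444), Neurl1a (−4.19, 0.00374), Dner (−2.21, 0.0267) and Dlk2 (−3.8, 0.0348) lower in 005, where their values with all libraries were −1.28, −2.16, −1.39 and −2.06 and were not called. Summed neuronal markers over the same tumors were 206 to 1020 CPM in CT2A, 739 to 1730 in GL261 and 43.9 to 132 in Mut3, all below naïve brain, and their part in these decreases was not tested.

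Among the proteases and gamma-secretase genes (11 tested), Adam17, a protease that can cleave Notch, rose in CT2A by 1.17 ± 0.32, in 005 by 1.08 ± 0.32 and in Mut3 by 1.5 ± 0.32 (adjusted p = 0.0112, 0.0392 and 0.00262, edgeR). On TPM naïve brain (0.711 to 0.973) overlapped CT2A (0.873 to 1.1) and 005 (0.872 to 1.5) but not Mut3 (1.29 to 1.62). Psen2, a catalytic subunit of gamma-secretase, fell in Mut3 (−1.86, 0.0139). Of the fringe glycosyltransferases, which tune ligand choice, Rfng fell in CT2A (−2.67, adjusted p = 0.00536, edgeR) and was at −1.56 in 005 (0.0972), or −2.5 (0.00537) without 005 replicate 3. Mfng was at 7.11, 3.74 and 3.28 CPM in 005, above all other samples, with a difference from naïve brain of 1.98 ± 0.77 (0.0983) and from Mut3 of 2.45 ± 0.75 (0.033).

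Of 5 further targets tested, Id3, a helix-loop-helix inhibitor that Notch and BMP signals can induce, rose in all 4 tumor models, by 1.55 (CT2A), 1.45 (GL261), 1.86 (005) and 1.7 (Mut3; adjusted p = 0.0154, 0.035, 0.0166 and 0.00943, edgeR). On TPM Id3 overlapped naïve brain (11.1 to 34.6) in all 4 models. It was at 16.7 to 36 TPM in CT2A, 19.6 to 32.7 in GL261, 32.8 to 53.4 in 005 and 19 to 52.3 in Mut3. Nrarp, a feedback inhibitor, was at 0 in all GL261 and 005 libraries and in 5 of the other 9, and no difference was called. Hes6, a relative that counters Hes1, was at 32.9, 22.6 and 18.6 CPM in Mut3 and at 7.84 to 14.9 CPM in naïve brain. It rose in Mut3 by 1.09 ± 0.36 (adjusted p = 0.026, edgeR) and was named here after its values were seen. On TPM Hes6 overlapped, with a mean of 9.55 in Mut3 (7.08 to 12.6) and 8.46 in naïve brain (4.42 to 13.4).

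The proneural gene Neurod1, a factor of differentiating and mature neurons, fell in CT2A (−3.77, adjusted p = 0.00896, edgeR) and Mut3 (−5.44, adjusted p = 0.00186, edgeR). Its 005 value was −1.88 (adjusted p = 0.165, edgeR), or −3.58 (0.00782) without 005 replicate 3. Mut3 also had the highest summed oligodendrocyte precursor markers, 249 to 568 CPM against 41.9 to 99.6 in naïve brain, 59 to 60.2 in CT2A, 147 to 182 in GL261 and 28.5 to 83.4 in 005. Of these 5 markers, 3 (Olig1, Olig2 and Gpr17) were higher in Mut3 than in naïve brain and none was at 0 in a library. In 005 none was DE (0 markers), and without replicate 3 Sox10 and Pdgfra, 2 markers, were lower (−1.59 and −1.11, adjusted p = 0.0171 and 0.0359, edgeR). By mean CPM, Olig1, Olig2, Gpr17, Dll3 and Hes6 were all highest in Mut3. Sox10 was highest in GL261 (53.1 CPM, against 10.5 in Mut3) and Pdgfra in CT2A (50.1 CPM, against 32.4 in Mut3). In GL261, where Olig2 and Sox10 of these markers were also DE and higher, Dll3 was at 0.418 CPM on average and Hes6 at 8.87 CPM, against 0.421 and 11.5 CPM in naïve brain. The part of these markers in the Mut3 levels of both genes was not tested.

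**Figure D4:**
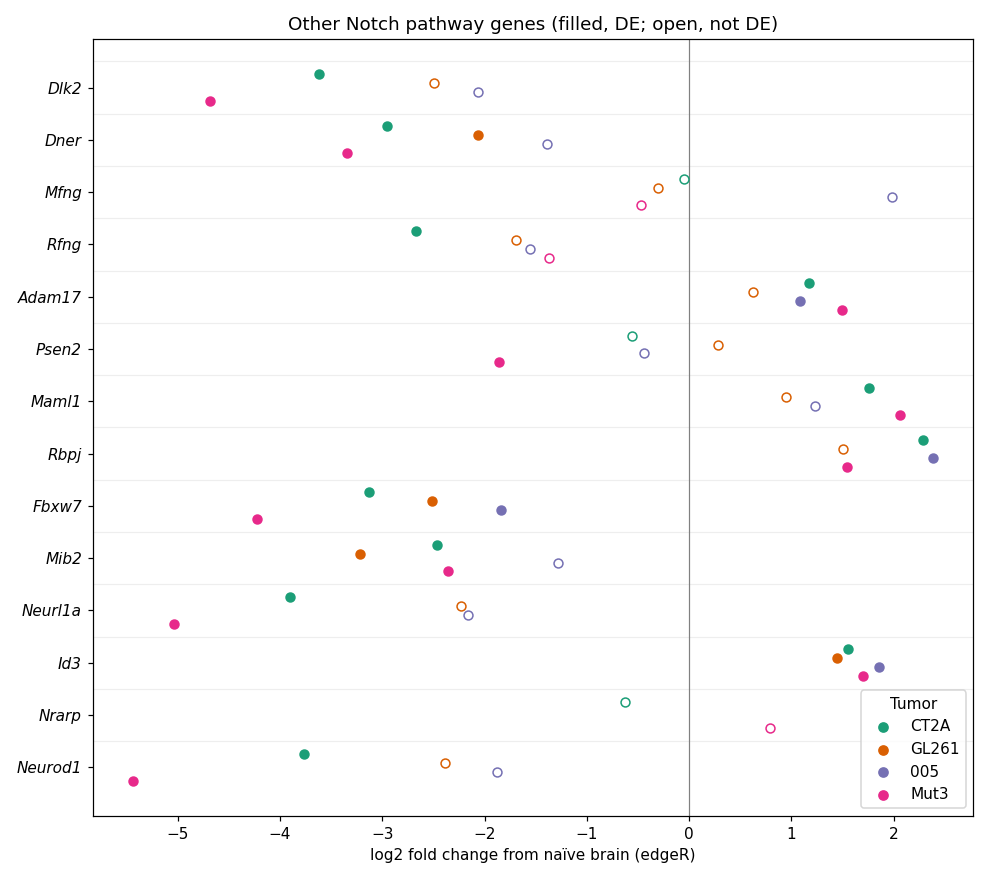
Log2 fold change from naïve brain (horizontal axis, edgeR) of 14 further Notch pathway genes (rows) in the CT2A, GL261, 005 and Mut3 tumors, 3 mice per group; filled points passed the DE threshold and open points did not. Id3 lies to the right of 0 in all 4 tumors and Fbxw7 to the left in all 4, and no point is drawn for Nrarp in GL261 and 005, where every library was at 0.

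The scale of the values mattered for several calls, among them those of Hes1 and Notch2 in CT2A against naïve brain. On the authors' TPM, log2(TPM + 0.1) of the median gene shifted relative to the count fit by −0.73 for CT2A against naïve brain, −0.61 for GL261, −0.46 for 005 and −0.65 for Mut3. Relative to the median gene on that scale, Jag1 was higher by 3.49 in CT2A and by 1.5 in GL261, by 0.82 in 005 and by 0.83 in Mut3, and Notch2 by 1.61 in CT2A and 1.13 in Mut3. Hes1 was higher by 1.74 in CT2A, and Hes5 was at −4.28 there. Without that centring the Notch2 calls in CT2A and Mut3, the Notch3 call in Mut3, the Jag1 calls in GL261 and Mut3 and the Hes1 call in CT2A against naïve brain were lost on TPM, and Hes1 in GL261 and 005 changed sign (−0.27 and −0.12), at 0.42 and 0.33 relative to the median gene. Gained on both TPM scales were lower calls of Hey1 in all 4 tumors, Hes5 in GL261 and 005, and Hes1 in Mut3. Of all DE genes, 48.4% were higher in CT2A by count and 20% on log2(TPM + 0.1), and the same shares were 65.3% and 23.9% for GL261, 91.7% and 31.9% for 005, and 47.5% and 22% for Mut3.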

How the data were processed

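RNA from end-stage tumors and naïve brain was sequenced as whole transcriptome libraries. The authors aligned reads with STAR v2.4.2a to the GENCODE mouse genome and marked duplicates with Picard; their processing notes list mm10, Salmon and DESeq2 1.18.1 without a role, and the annotation release is not given in the sources used here. The authors deposited estimated counts per gene that were not normalized, and TPM, which are scaled by the authors for gene length and to a fixed sum. The 2 tables are not independent.

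Counts were rounded, filtered with filterByExpr, scaled by TMM and fitted with edgeR 4.0.16 (glmQLFit and glmQLFTest, R 4.3.3) with 1 mean per group over all 15 samples. P-values were adjusted by Benjamini-Hochberg over the 17481 genes tested. Groups came from the sample labels. The fit was tested on simulated data. Alternatives were DESeq2 1.42.0, library size scaling, no filter, at least 10 counts in every sample, only the samples compared, limma 3.58.1 on log2(TPM + 1) and log2(TPM + 0.1), a replicate block, no fold threshold and each replicate left out.

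The 10 members and all gene lists were chosen with earlier results of these data known, so the counts are a description. All 10 members were named, and of the other pathway lists the genes DE in at least 3 of 4 tumors or with the 2 largest changes of a list, except 1 that is not reported here. Role shares, the Hes5 ratio, values relative to the median gene and the pathway and marker counts without 005 replicate 3 were added after the values were seen. So were the Notch4 values and the TPM values of Id3, Hes6, Rbpj, Maml1 and Adam17.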

Additional observations from a re-analysis of the deposited data

Results flagged for a closer look

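In the 6 comparisons between tumor lines, 8 member differences passed edgeR's test of the difference itself, so that the change from naïve brain differed between those lines. Each comparison tested 9 members. Of all genes, 2.62% (GL261 and 005) to 19.8% (005 and Mut3) were DE in a comparison. Jag1 differed by 2.23 between CT2A and GL261, by 2.89 between CT2A and 005 and by 2.87 between CT2A and Mut3 (log2 scale, first line minus second). Notch2 differed by 1.5 between CT2A and 005, a call lost in 11 of 14 alternatives. Notch1 differed by −4.88 between CT2A and Mut3 and rested on Mut3 replicate 2, without which it was −1.86 (adjusted p = 0.323, edgeR). Hes1 differed by 2.79 between CT2A and Mut3, called in all 14 alternatives, and by 1.36 between 005 and Mut3, a call lost in 9 of 14. Hes5 differed by −5.26 between CT2A and Mut3, a fitted value that rests on 2 counts in CT2A.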

How the results depend on the processing

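Of 16 member differences called between pairs of groups, 4 were called under every alternative (Jag1 in CT2A against naïve brain, GL261 and Mut3, and Hes1 in CT2A against Mut3), Hes5 in CT2A against naïve brain was called in the 13 that tested it (not with at least 10 counts in every sample), and 0 changed sign. Counts of members called moved by over 1.5 times as follows, each with the percent of all genes DE under the same setting, and the cause was not tested. The last range of a comparison leaves out a replicate. GL261 against naïve brain (1; 22.4%) had 4 with DESeq2 (29.6%) and with only the samples compared (35%), 2 on log2(TPM + 1) (26.6%) and log2(TPM + 0.1) (41.4%), and 1 to 2. 005 against naïve brain (0; 12.7%) had 1 with DESeq2 (19.1%), 2 on either TPM scale (18.1% and 25.5%), and 0 to 3 (3 without 005 replicate 3, 35.7%). Mut3 against naïve brain (3; 37.8%) had 5 with DESeq2 (40.7%). CT2A against GL261 (1; 7.77%) had 2 with DESeq2 (12.4%), no filter (4.54%) and at least 10 counts (9.62%), 3 with only the samples compared (15.8%), and 1 to 2. CT2A against 005 (2; 4.11%) had 1 with library size (3.44%) or TPM (2.73% and 3.99%), 0 with only the samples compared (0.71%), and 1 to 2. CT2A against Mut3 (4; 12.8%) had 2 with at least 10 counts (13.7%) and on log2(TPM + 1) (6.48%). GL261 against Mut3 (0; 17.2%) had 2 with DESeq2 (23%) or no filter (10.1%), 1 with at least 10 counts (16.2%) or log2(TPM + 0.1) (11.6%), and 0 to 1. 005 against Mut3 (1; 19.8%) had 2 with DESeq2 (24.7%), 0 with library size (18.1%), only the samples compared (5.88%) or log2(TPM + 1) (6.22%), and 0 to 2. The 5-group test (5; 52.1%) had 3 with at least 10 counts (59.7%), where 4 members were tested.

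The replicate numbers name different mice, and same-numbered samples did not deviate together (correlations of −0.33 to 0.26, 1 of 30 over 0.1). With a replicate block, 1 member was called in Mut3 against naïve brain (35.4% of all genes), 1 in CT2A against 005 (2.25%) and 0 in 005 against Mut3 (14.6%).

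Values that were not called changed sign as follows, on log2(TPM + 1) and log2(TPM + 0.1) unless another setting is named. Against naïve brain, Notch2 in 005 was −0.1 and −0.15, Notch3 in CT2A 0 on the first and in GL261 −0.03 and −0.16, Dll1 in CT2A −0.21 and −0.43 (−0.08 with library size) and in 005 −0.09 and −0.14 (−0.01 with DESeq2), Dll4 in GL261 −0.05 and −0.01 and in Mut3 −0.04 on the first, and Hes1 in GL261 −0.21 and −0.27 and in 005 −0.1 and −0.12. With a replicate left out, Notch1 ranged from −2.82 to 0.39 in CT2A, −1.47 to 1.74 in GL261, −0.35 to 3.12 in 005 and −0.37 to 5.26 in Mut3. Notch3 in GL261 ranged from −0.02 to 0.91, Dll1 from −0.28 to 0.39 in CT2A and −0.4 to 0.39 in 005, Hes5 in Mut3 from −1.66 to 0.35, and Dll4 from −1.47 to 4.58 in CT2A, −0.15 to 5.76 in GL261 and −0.89 to 4.92 in 005.

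All genes called in 005 against naïve brain numbered 2217, against 3341 with DESeq2, 222 with only the samples compared and 6535 without 005 replicate 3. With at least 10 counts in every sample they numbered 1206. The share higher was 91.7%, and 75.5% with DESeq2.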

Other observations

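A further 6 pathway genes were too low to be tested. Jag2, a Jagged ligand, had 5, 1 and 15 counts in the 005 tumors and at most 4 in each of the other 12 samples, with the highest value in 005 replicate 3. Lfng, the fringe enzyme of the segmentation clock, had 1 to 12 counts, and Hes7, a repressor of that clock, had 0 to 9. The proneural gene Neurog2 was counted in naïve brain (3, 3 and 0), and of the tumors only in 005 replicate 3 (4 counts) and in GL261 replicate 2 (1 count). Neurog1 was at 0 in all 15 samples, and Atoh1 had 1 count in 1 Mut3 tumor.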
